A study of Mus musculus with 10 samples.

Results

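Clade B serpins are a family of protease inhibitors and related proteins that mostly stay inside the cell, and they were examined here as transcripts in mouse gingival epithelium from the palatal side and the buccal side of the gum. The members were the genes whose symbol in the deposited table begins with Serpinb followed by a digit and that have count values, without the pseudogenes marked by a -ps suffix. Of 49164 genes with count values, 28 met this rule. The palatal group holds 5 libraries and the buccal group holds 5 libraries, each of polyadenylated RNA from epithelium peeled off under a microscope after digestion with Dispase, a protease, per the labels' protocols. The genotype, strain, age and microbial status of the mice are not given, the labels name no treatment, and the design text's comparison of pooled germ-free and specific-pathogen-free mice was not analysed here. Nothing in the labels says that each library is a different animal, so the p-values reflect how far these libraries spread, which may be technical in part.

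An inhibitory serpin works as a single-use trap. A flexible reactive centre loop is offered as bait, and a protease that cuts the loop stays bound to it while the loop folds into the body of the serpin and distorts the protease. The residues of the loop set which proteases are caught, and the part of the loop that moves in first, its hinge, is conserved among inhibitory members. Clade B serpins lack a classical secretion signal. In stratified epithelia they are known for restraining lysosomal cysteine proteases and serine proteases, and in leukocytes for protecting the cell from its own granule proteases. In the mouse the genes lie in a cluster on chromosome 1 and another on chromosome 13, and several human genes are represented by a group of mouse copies.

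The mouse Serpinb3 genes are such a group of copies, and they are shown first because these copies differed between the sides in opposite directions. They are counterparts of human SERPINB3 and SERPINB4, the squamous cell carcinoma antigens, which in humans inhibit papain-like cysteine proteases and chymotrypsin-like serine proteases. The next lines give 90 bases of coding sequence for each copy, 30 codons that begin at the hinge of the loop (codon 336). They were read from the GENCODE M21 transcripts on build GRCm38, minus strand, in the last exon, at chr1:107046085-107046174 for Serpinb3a, chr1:107154438-107154527 for Serpinb3b, chr1:107271695-107271784 for Serpinb3c and chr1:107078262-107078351 for Serpinb3d. Capitals mark the 50 positions at which the 4 copies are not all the same when set side by side without gaps.
Serpinb3a: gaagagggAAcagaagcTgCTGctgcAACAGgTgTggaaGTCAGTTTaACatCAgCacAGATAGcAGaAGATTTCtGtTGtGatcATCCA
Serpinb3b: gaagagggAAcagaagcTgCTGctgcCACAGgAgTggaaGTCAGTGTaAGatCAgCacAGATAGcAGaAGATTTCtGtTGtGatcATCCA
Serpinb3c: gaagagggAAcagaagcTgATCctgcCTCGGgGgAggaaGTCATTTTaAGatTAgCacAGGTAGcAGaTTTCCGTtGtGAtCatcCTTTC
Serpinb3d: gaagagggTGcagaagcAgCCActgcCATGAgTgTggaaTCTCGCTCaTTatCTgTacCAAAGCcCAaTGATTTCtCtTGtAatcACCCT
Over this stretch Serpinb3a and Serpinb3b differ at 4 bases. Counted without gaps, Serpinb3c differs from Serpinb3a at 25 bases and from Serpinb3b at 24. Its coding sequence has 386 codons and that of each other copy 387, so its later bases here are out of step. Part of its differences, and of the capitals, comes from that shift. Serpinb3d stands farthest off, with 31 differences from Serpinb3a, 32 from Serpinb3b and 46 from Serpinb3c, the last again including the shift. Over the whole coding sequence there was 93.1% identity between Serpinb3a and Serpinb3b, 91.5% between Serpinb3a and Serpinb3c, and 93.4% between Serpinb3b and Serpinb3c.

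The 250 bases before the annotated start of 3 of these genes are shown next, because Serpinb3a and Serpinb3c were lower and Serpinb3b was higher on the palatal side. The sequences are from RefSeq (GRCm38.p6, minus strand) at chr1:107052304-107052553 for Serpinb3a, chr1:107161115-107161364 for Serpinb3b and chr1:107278372-107278621 for Serpinb3c, with the letters TATAAA in capitals.
Serpinb3a upstream: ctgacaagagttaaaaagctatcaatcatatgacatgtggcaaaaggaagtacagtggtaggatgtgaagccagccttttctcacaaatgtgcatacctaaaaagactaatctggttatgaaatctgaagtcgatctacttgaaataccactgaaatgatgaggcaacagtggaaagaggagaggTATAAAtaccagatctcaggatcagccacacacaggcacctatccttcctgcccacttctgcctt
Serpinb3b upstream: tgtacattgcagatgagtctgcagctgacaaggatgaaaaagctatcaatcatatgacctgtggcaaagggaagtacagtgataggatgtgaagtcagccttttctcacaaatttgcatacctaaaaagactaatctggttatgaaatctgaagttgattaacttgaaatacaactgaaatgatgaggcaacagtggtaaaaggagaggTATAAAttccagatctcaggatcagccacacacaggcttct
Serpinb3c upstream: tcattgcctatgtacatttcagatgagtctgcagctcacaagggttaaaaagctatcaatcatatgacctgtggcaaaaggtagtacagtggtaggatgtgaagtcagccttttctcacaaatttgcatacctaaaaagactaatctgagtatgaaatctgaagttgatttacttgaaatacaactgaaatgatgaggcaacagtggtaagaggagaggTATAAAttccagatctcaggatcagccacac
These stretches aligned with 92.5% identity over 226 bases for Serpinb3a and Serpinb3b, 94.0% over 216 bases for Serpinb3a and Serpinb3c, and 95.4% over 240 bases for Serpinb3b and Serpinb3c. The alignments are offset, since the annotated starts differ: the TATAAA letters lie 65 to 60 bases before the start of Serpinb3a, 41 to 36 before that of Serpinb3b and 31 to 26 before that of Serpinb3c. The upstream stretch of Serpinb3d aligned with each of the others over no more than 23 bases and held no TATAAA. These letters, searched on the gene's own strand, occur in 7.59% of all 32851 RefSeq promoter entries over the same 250 bases.

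Total counts per library were 25868777 to 35583168 on the palatal side and 29317011 to 37234192 on the buccal side. Levels are given as CPM, counts scaled to a common library total by edgeR's TMM library sizes, and fold changes are log2 values, palatal minus buccal. Of the 28 members, 17 had enough counts to be tested, and 12 of the 17 (70.6%) differed between the sides at an adjusted p of 0.05 (edgeR's quasi-likelihood test, Benjamini-Hochberg over all genes). The same test called 38.9% of all 14062 tested genes. Of these members 6 were higher and 6 were lower on the palatal side, against 18.7% and 20.3% of all tested genes. In 11 members the palatal and buccal libraries did not overlap, against 28.3% of all tested genes. Palatal lay above in 6 of these members and buccal in 5, against 13.6% and 14.7% of all tested genes. The members had no common direction: their median log2 fold change was -0.08, beside 0.01 over all tested genes. In such bulk samples, fewer cells of a type and less RNA per cell cannot be told apart.

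**Figure D1:**
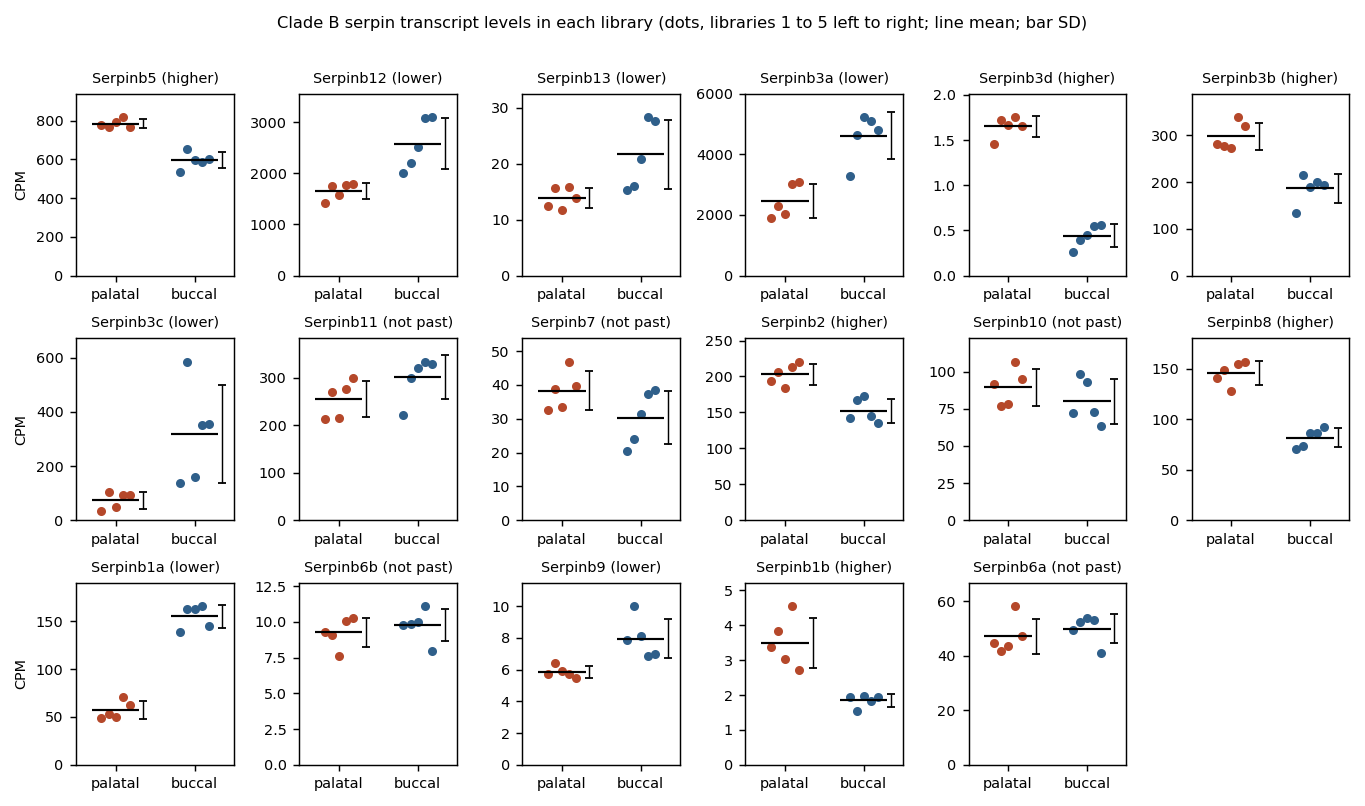
Transcript level of each tested clade B serpin in CPM (vertical axes, from 0), with 5 palatal libraries to the left of 5 buccal libraries in every panel; dots are libraries, lines are means and bars are SD. Serpinb8, Serpinb3b and Serpinb3d have all palatal dots above all buccal dots, and Serpinb1a, Serpinb3a and Serpinb3c have all palatal dots below.

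Serpinb3a (ENSMUSG00000044594), which in mice has been shown to inhibit both cysteine and serine proteases, was the most abundant member on either side per length of transcript. It had 1904, 2309.9, 2025, 3008 and 3101 CPM in palatal libraries 1 to 5, against 3287, 4636, 5220.4, 5096 and 4787 CPM in buccal libraries 1 to 5. The highest palatal library stayed below the lowest buccal one. The means were 2469.8 ± 555 CPM palatal and 4605 ± 773 CPM buccal (SD, n = 5 each), a 1.86-fold lower palatal level with a log2 fold change of -0.90 ± 0.16 (SE; 95% interval -1.23 to -0.56) and an adjusted p of 0.000345 in edgeR's test.

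Serpinb3b (ENSMUSG00000073602) differed in the opposite direction. It had 282, 278, 274, 339 and 319 CPM in palatal libraries, against 134, 216, 189.6, 201 and 194 CPM in buccal libraries, in the order of their numbers. Every palatal library lay above every buccal one. The palatal mean of 298 ± 29.1 CPM was 1.60-fold the buccal mean of 187 ± 31.4 CPM, with a log2 fold change of 0.67 ± 0.11 (interval 0.44 to 0.91, adjusted p = 0.000219, edgeR).

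Serpinb3c (ENSMUSG00000073601) had the lowest log2 fold change of the 17 tested members and was the most variable. It had 32.4, 104, 47.5, 91.6 and 94.1 CPM in palatal libraries 1 to 5, against 136, 585, 161, 352 and 354 CPM in buccal libraries 1 to 5. No palatal library reached the lowest buccal library, but each side spanned a wide range, and library 2 was the highest on both. The coefficient of variation was 43.1% palatal and 57.1% buccal. The log2 fold change was -2.10 ± 0.50 (interval -3.23 to -0.97, adjusted p = 0.00913, edgeR), a 4.29-fold lower palatal mean of 74.0 ± 31.9 CPM, against 317 ± 181 CPM. Without buccal library 2 it was -1.76 (adjusted p = 0.0166), and without both libraries numbered 2 it was -1.92 (adjusted p = 0.0202).

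Human SERPINB3 and SERPINB4 are known to be induced by the cytokines interleukin 4 and interleukin 13 in epithelial cells, so the response genes of these cytokines are given beside Serpinb3c. Of 18 listed genes 12 were tested, of which 1 was higher and 6 were lower on the palatal side, their median log2 fold change being -0.35. Over all tested genes 18.7% were higher and 20.3% were lower. Arg1 was the higher gene, with means of 864 CPM palatal and 719 CPM buccal and sides that overlapped (0.27 ± 0.10, adjusted p = 0.0400, edgeR). Il13ra1, a chain of the receptor, did not pass (0.03 ± 0.06). The transcription factor Stat6, which carries the signal, had a log2 fold change of -0.40 ± 0.06 (adjusted p = 0.000153, edgeR), and the receptor chain Il4ra one of -0.24 ± 0.11 that did not pass (adjusted p = 0.121). The chitinase-like gene Chil4 had 152, 506, 176, 77.8 and 75.4 CPM in palatal libraries 1 to 5, against 6152, 10631, 1020.3, 2652 and 4557 CPM in buccal libraries 1 to 5. The lipoxygenase gene Alox15 had 34.0, 52.9, 36.1, 21.2 and 20.4 CPM in palatal libraries, against 582, 1019.9, 207, 237 and 335 CPM in buccal libraries. In both genes, as in Serpinb3c, library 2 was the highest on either side and the sides did not overlap, while the other libraries stood in a different order in Serpinb3c than in Chil4 and Alox15, which had the same order as each other. Their part in the Serpinb3c result was not tested.

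Serpinb3d (ENSMUSG00000058017) was the scarcest tested member and was higher on the palatal side. It had 1.46, 1.72, 1.66, 1.75 and 1.66 CPM in palatal libraries, against 0.257, 0.394, 0.451, 0.553 and 0.559 CPM in buccal libraries. The palatal libraries lay close together and well above the buccal ones. The log2 fold change was 1.88 ± 0.20 (interval 1.45 to 2.31, adjusted p = 3.76e-06, edgeR), or 3.69-fold higher. Summed over all 4 copies, the Serpinb3 genes followed the abundant Serpinb3a, with 2844 ± 606 CPM palatal and 5109.7 ± 877 CPM buccal and a log2 fold change of -0.85 ± 0.15 (adjusted p = 0.000525, edgeR).

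The similarity of the copies bears on how reads can be divided among them. Reads were 122 bases long, per the labels' protocols. Of all windows of that length, 1.33% in Serpinb3a, 5.68% in Serpinb3b, 4.68% in Serpinb3c and 0.457% in Serpinb3d lay within 2 mismatches of another member's transcript, and 5.20% of those in Serpinb3a also occurred exactly in the predicted gene Gm8080. Serpinb3b and Serpinb3c share 35 exon bases in this annotation. The copies therefore differ within most read-length windows, while how the authors' counting treated reads with several matches is not given in the sources used here.

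Ratios within a library describe the mix of copies without reference to other libraries. Per kilobase of exon, the Serpinb3a level was 7.00 to 10.1 times the Serpinb3b level in palatal libraries (median 8.61), against 22.2 to 28.5 times in buccal libraries (median 25.6), with no overlap. Against Serpinb3c the ratio was 22.5 to 59.7 in palatal libraries (median 33.5) and 8.07 to 33.1 in buccal libraries (median 14.7), and these ranges overlapped. The Serpinb1a level was 11.5 to 19.3 times the Serpinb1b level in palatal libraries (median 13.1), against 60.3 to 88.5 times in buccal libraries (median 69.1), again with no overlap. For Serpinb3a with Serpinb3b and Serpinb1a with Serpinb1b, this lack of overlap follows from the copies' own levels. Those did not overlap between the sides and differed in opposite directions, so the separated ratios are no further result.

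**Figure D2:**
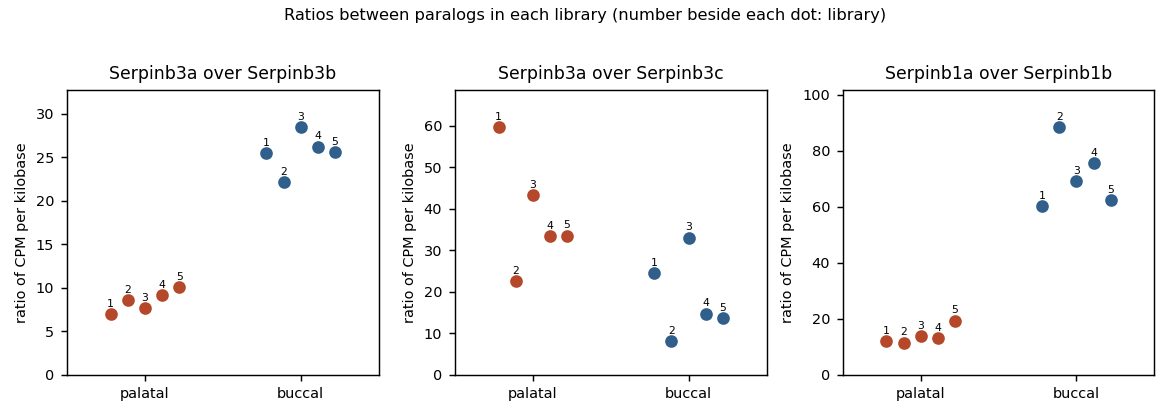
Ratio of CPM per kilobase of exon between paralogs in each library (vertical axes, from 0), palatal libraries to the left of buccal ones, with the library number above each dot. The ratios of Serpinb3a to Serpinb3b and of Serpinb1a to Serpinb1b do not overlap between the sides (7.00 to 10.1 palatal against 22.2 to 28.5 buccal for the Serpinb3 pair). That follows from the opposite, non-overlapping levels of these copies. The ratio of Serpinb3a to Serpinb3c does overlap.

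Among the other members of the chromosome 1 cluster, Serpinb12, Serpinb13 and the 2 Serpinb3 copies described above were lower on the palatal side, while Serpinb5, Serpinb2 and Serpinb8 were higher. Serpinb12 (ENSMUSG00000059956), an inhibitor of trypsin-like serine proteases found in surface epithelia, had 1428, 1745, 1577, 1767 and 1795 CPM in palatal libraries, against 2014, 2199, 2516, 3077 and 3098 CPM in buccal libraries. The sides did not overlap, and the palatal level was 1.55-fold lower (log2 fold change -0.63 ± 0.12, adjusted p = 0.000818, edgeR). Serpinb13 (ENSMUSG00000048775), whose human counterpart headpin inhibits lysosomal cathepsins such as cathepsin L, had 12.5, 15.6, 11.7, 15.8 and 13.8 CPM in palatal libraries, against 15.3, 16.1, 20.8, 28.3 and 27.6 CPM in buccal libraries. Buccal library 1 lay within the palatal range, so the sides overlapped, although the difference passed the test (log2 fold change -0.64 ± 0.17, adjusted p = 0.0096, edgeR). Without the filter on low counts, with 29221 genes tested, its adjusted p was 0.0642.

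Serpinb8 (ENSMUSG00000026315), an inhibitor of the proprotein convertase furin whose human counterpart is mutated in a peeling skin disorder, had the second lowest adjusted p of the members. It had 141, 149, 129, 155 and 157 CPM in palatal libraries, against 70.2, 73.7, 86.4, 86.9 and 92.0 CPM in buccal libraries. The lowest palatal library was above the highest buccal one, and the level was 1.79-fold higher (log2 fold change 0.84 ± 0.08, adjusted p = 2.14e-06, edgeR). Serpinb5 (ENSMUSG00000067006), or maspin, a keratinocyte serpin that does not act as a protease inhibitor, had 779, 767, 793, 817 and 765 CPM in palatal libraries, against 536, 653, 595, 588 and 603 CPM in buccal libraries. The palatal libraries were close together, and all lay above the buccal ones. Its log2 fold change was 0.40 ± 0.07 (adjusted p = 0.000269, edgeR), or 1.32-fold.

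Serpinb2 (ENSMUSG00000062345) encodes plasminogen activator inhibitor type 2, which blocks urokinase and is abundant inside differentiating keratinocytes. It had 193, 206, 184, 213 and 220.3 CPM in palatal libraries, against 142, 167, 173, 146 and 135 CPM in buccal libraries, with no overlap. The palatal level was 1.33-fold higher (log2 fold change 0.42 ± 0.08, adjusted p = 0.000844, edgeR). Its neighbour Serpinb10 (ENSMUSG00000092572), named bomapin for its expression in human bone marrow and annotated in GENCODE M21 as a polymorphic pseudogene, shares 291 exon bases with it, and 7.55% of its read-length windows occur exactly in Serpinb2. Serpinb10 had 76.5 to 107 CPM in palatal libraries, against 63.4 to 98.3 CPM in buccal libraries, with a log2 fold change of 0.16 ± 0.12 (interval -0.10 to 0.43) that did not pass (adjusted p = 0.327, edgeR).

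Serpinb11 and Serpinb7 also did not pass. Serpinb11 (ENSMUSG00000026327), an epithelial member that inhibits trypsin-like proteases in the mouse, had 213, 269.7, 216, 276 and 299.5 CPM in palatal libraries, against 222, 299.8, 320.4, 333 and 329 CPM in buccal libraries. Only buccal library 1 lay inside the palatal range, and the log2 fold change was -0.24 ± 0.12 (interval -0.50 to 0.02, adjusted p = 0.131, edgeR). Without that library it was -0.33 with an adjusted p of 0.0206. Serpinb7 (ENSMUSG00000067001), or megsin, whose loss in humans causes a palmoplantar keratosis, had 32.5 to 46.8 CPM in palatal libraries, against 20.6 to 38.3 CPM in buccal libraries. Its log2 fold change was 0.33 ± 0.17 (interval -0.03 to 0.69, adjusted p = 0.133, edgeR).

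Of the chromosome 13 cluster, which holds inhibitors of leukocyte granule proteases, only 5 of 16 members could be tested. Serpinb1a (ENSMUSG00000044734) is the counterpart of human SERPINB1, which inhibits neutrophil elastase, proteinase 3 and cathepsin G, and it had the lowest adjusted p of all members. It had 49.0, 52.8, 49.9, 70.9 and 62.5 CPM in palatal libraries, against 139, 163, 162, 166 and 145 CPM in buccal libraries. The highest palatal library stood far below the lowest buccal one. The means were 57.0 ± 9.44 CPM palatal and 155 ± 12.1 CPM buccal, a 2.72-fold lower palatal level with a log2 fold change of -1.44 ± 0.10 (interval -1.66 to -1.23, adjusted p = 4.66e-08, edgeR).

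Its copy Serpinb1b (ENSMUSG00000051029), with 90.7% identity to it over the coding sequence, differed in the opposite direction. It had 3.38, 3.83, 3.02, 4.54 and 2.71 CPM in palatal libraries, against 1.93, 1.54, 1.97, 1.83 and 1.94 CPM in buccal libraries. The sides did not overlap, and the palatal level was 1.89-fold higher (log2 fold change 0.92 ± 0.15, adjusted p = 0.000236, edgeR). Of its read-length windows 2.35% lay within 2 mismatches of another member. Summed over its copies, the Serpinb1 group had 60.7 ± 9.91 CPM palatal and 157 ± 12.1 CPM buccal (log2 fold change -1.37 ± 0.10, adjusted p = 6.80e-08, edgeR).

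Serpinb9 (ENSMUSG00000045827), which inhibits granzyme B and protects cytotoxic lymphocytes and their neighbours, had 5.70, 6.41, 5.92, 5.70 and 5.45 CPM in palatal libraries, against 7.85, 9.98, 8.09, 6.88 and 6.98 CPM in buccal libraries. All palatal libraries lay below all buccal ones, and the level was 1.36-fold lower (log2 fold change -0.44 ± 0.11, adjusted p = 0.00448, edgeR). Serpinb6a (ENSMUSG00000060147), counterpart of the human cathepsin G inhibitor SERPINB6, had 41.8 to 58.1 CPM in palatal libraries, against 40.9 to 53.8 CPM in buccal libraries, and its log2 fold change of -0.08 ± 0.10 (interval -0.29 to 0.12) did not pass (adjusted p = 0.539, edgeR). Its exons overlap genes on the opposite strand, among them Nqo2 over 762 bases, and the strand setting of the counting is not stated. Serpinb6b (ENSMUSG00000042842) had 7.65 to 10.2 CPM in palatal libraries, against 7.99 to 11.1 CPM in buccal libraries (log2 fold change -0.08 ± 0.10, interval -0.30 to 0.15, adjusted p = 0.605, edgeR).

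Markers of leukocytes moved in the same direction as Serpinb1a and Serpinb9. Of 13 macrophage and monocyte markers, 10 were tested and 9 were lower, with summed levels of 15.7 to 23.2 CPM in palatal libraries, against 33.8 to 54.2 CPM in buccal libraries. All 8 tested markers of Langerhans and dendritic cells, out of 11, were lower, with sums of 66.9 to 93.6 CPM in palatal libraries, against 215 to 382 CPM in buccal libraries. Of 19 markers of T, NK and innate lymphoid cells 11 were tested and 10 were lower, Thy1 being the exception, and their sums were 22.5 to 32.7 CPM in palatal libraries, against 25.9 to 34.3 CPM in buccal libraries. Thy1, which fibroblasts also express, made up most of these sums, with means of 21.7 CPM palatal and 16.2 CPM buccal, while Cd3e averaged 0.451 CPM palatal and 1.11 CPM buccal. The NK cell receptor gene Ncr1 had 0 palatal and 22 buccal counts. Neutrophil markers did not move together: of 12 listed, 2 could be tested, and Cxcr2 was lower (log2 fold change -1.36 ± 0.11) while Ltf was higher (3.26 ± 0.50). The sums of the neutrophil list were 57.9 to 151 CPM palatal and 15.7 to 37.7 CPM buccal, of which Ltf alone had 53.9 to 146 CPM palatal and 5.25 to 27.5 CPM buccal. Cxcr2 averaged 3.93 CPM palatal and 10.1 CPM buccal. Its defining myeloperoxidase gene Mpo had a total of 7 palatal and 8 buccal counts. The part of these cells in the Serpinb1a and Serpinb9 results was not tested.

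The remaining 11 members, all on chromosome 13, had too few counts for the main test. Serpinb1c (ENSMUSG00000079049) had a total of 27 palatal and 65 buccal counts and was seen in every library. Serpinb6c had 23 palatal and 19 buccal counts. Serpinb9e had 8 palatal counts from 3 libraries and 0 buccal counts, at least 2.83-fold higher when 3 counts are set as the limit over the buccal group. That bound is uncertain, since its highest library had 4 counts and 26.2% of its read-length windows lay within 2 mismatches of another member. Serpinb9c had 3 palatal and 4 buccal counts, Serpinb9b 2 and 4, and Serpinb9d 2 and 1. Serpinb9f and Serpinb6e had 1 palatal count each and 0 buccal counts, and Serpinb6d, Serpinb9g and Serpinb9h were at 0 in every library. The last Serpinb9 copies are nearly identical, with 98.9% coding identity between Serpinb9f and Serpinb9h and 99.1% between Serpinb9g and Serpinb9h, and 94.3% of the read-length windows of Serpinb9f, 62.7% of those of Serpinb9g and 99.8% of those of Serpinb9h lay within 2 mismatches of another member. A low count of these copies is therefore uncertain.

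Both directions occurred along the chromosome 1 cluster. All 12 of its members were tested, 5 being higher and 4 lower on the palatal side, with 3 that did not pass. In the order Serpinb5, Serpinb12, Serpinb13, Serpinb3a, Serpinb3d, Serpinb3b, Serpinb3c, Serpinb11, Serpinb7, Serpinb2, Serpinb10 and Serpinb8, the first was higher, the next 3 were lower, the next 2 were higher and Serpinb3c was lower. Of the tested chromosome 13 members, 1 was higher, 2 were lower and 2 did not pass. The share over all tested genes was 18.7% higher and 20.3% lower, and only 5 chromosome 13 members were tested. Promoter letters differed between the clusters. The motif TGANTCA, a loose form of the site bound by AP-1 factors, was searched on both strands of the 250 bases before the start. It occurred in 8 of the 32 RefSeq entries of members. They belonged to 7 of 11 chromosome 1 members with an entry (Serpinb2, Serpinb5, Serpinb7, Serpinb8, Serpinb10, Serpinb11 and Serpinb12) and to 0 of 15 chromosome 13 members, beside 6.75% of all promoter entries. Of these genes only Serpinb7 and Serpinb8 had the stricter letters TGAGTCA, or TGACTCA on the other strand. The others matched only as TGAATCA or TGATTCA. The STAT6 motif TTCNNNNGAA, searched on both strands, occurred in 1 of the 11 and 2 of the 15, beside 5.85% of all entries. A match describes these letters and does not show binding. None of the 4 Serpinb3 copies held either motif in this window.

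**Figure D3:**
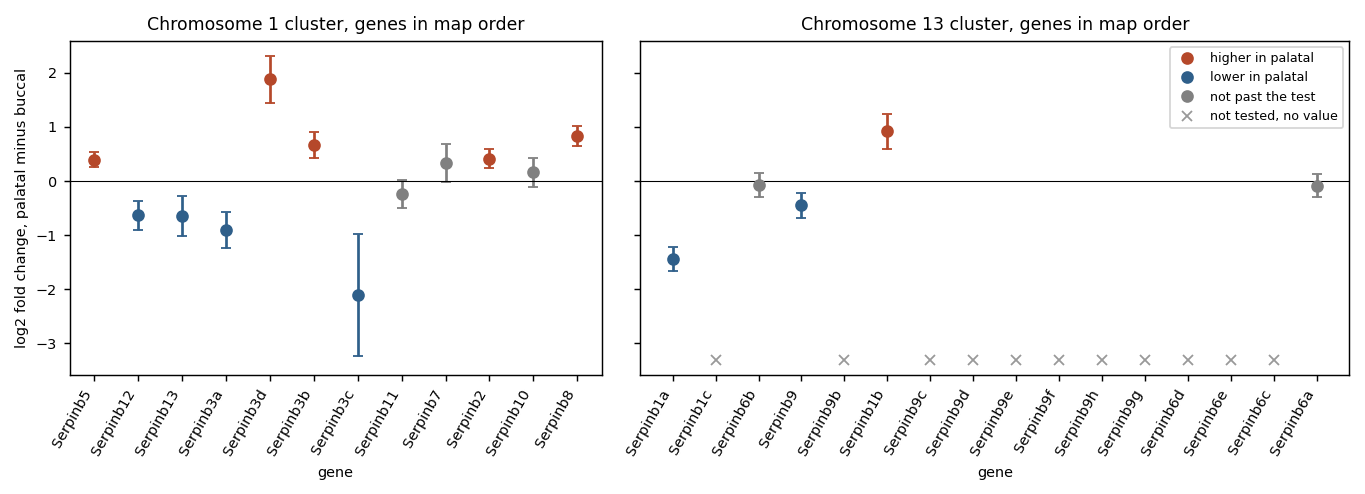
Log2 fold change, palatal minus buccal (vertical axis), of clade B serpins in map order on chromosome 1 (left) and chromosome 13 (right); dots are edgeR estimates, bars their 95% intervals, colours the call, and crosses at the bottom are members with no value. The Serpinb3 genes lie on both sides of 0, from -2.10 for Serpinb3c to 1.88 for Serpinb3d.

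Levels of different members can be compared only per length. In CPM per kilobase of exon, Serpinb3a made up 50.2% of the tested members' summed level on the palatal side and 59.7% on the buccal side, with means of 1514 palatal and 2824 buccal. Serpinb12 followed with 22.1% palatal and 21.8% buccal, at 665 palatal and 1033 buccal CPM per kilobase. Serpinb5 was next on both sides, at 285 palatal and 216 buccal. Below these the order changed with the side: Serpinb3b took rank 4 of the palatal order and rank 6 of the buccal one, Serpinb3c palatal rank 7 and buccal rank 4, and Serpinb1a palatal rank 10 and buccal rank 7. Serpinb2 took palatal rank 6 and buccal rank 8, and Serpinb8 palatal rank 8 and buccal rank 10. Serpinb3d was the lowest on both sides, at 1.36 palatal and 0.364 buccal. Neighbours in the order had overlapping library ranges in 6 of 16 palatal pairs and in 8 of 16 buccal pairs, so those ranks are not separated beyond the spread. On the palatal side these pairs lay between Serpinb3c and Serpinb7, which includes Serpinb8, Serpinb10 and Serpinb1a, and joined Serpinb6a with Serpinb13 and Serpinb1b with Serpinb9. On the buccal side they ran from Serpinb5 through Serpinb3c and Serpinb11 to Serpinb3b, joined Serpinb1a with Serpinb2, and ran from Serpinb10 through Serpinb8, Serpinb7 and Serpinb13 to Serpinb6a. Lengths are union exon lengths of GENCODE M21, an older build than that of the counts, and with the length of 1 transcript in place of all exons Serpinb10 moved to rank 7 and Serpinb6a to rank 10 of the palatal order.

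**Figure D4:**
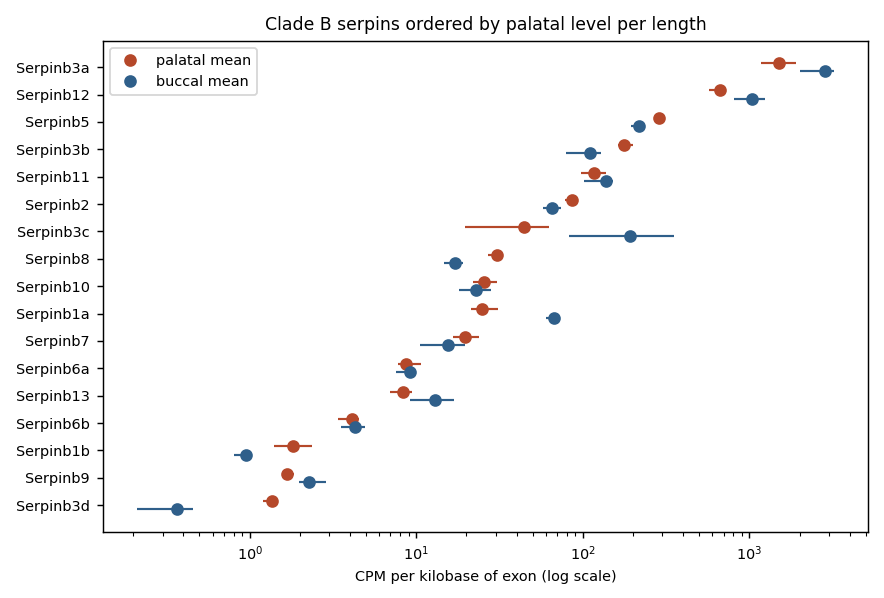
Mean level of each tested clade B serpin in CPM per kilobase of exon (horizontal axis, log scale), palatal above buccal in each row, with lines from the lowest to the highest library. Serpinb3a and Serpinb12 lead on both sides (1514 and 665 palatal, 2824 and 1033 buccal), and Serpinb3c and Serpinb1a have the widest gaps in favour of the buccal side.

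The family as a whole followed its most abundant members. The 28 members held 0.524% to 0.678% of all counts in palatal libraries, against 0.727% to 1.01% in buccal libraries. Serpinb3a and Serpinb12 together had 3332 to 4896 CPM in palatal libraries, against 5301 to 8173 CPM in buccal libraries. All other members together had 1878 to 2212 CPM in palatal libraries, against 1557 to 2370.3 CPM in buccal libraries, ranges that overlapped.

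Among proteases that clade B serpins are known to restrain, the cathepsins differed in both directions. Of 13 cathepsins 11 were tested, of which 2 were higher and 6 were lower on the palatal side, the median log2 fold change being -0.33. Over all tested genes 18.7% were higher and 20.3% were lower, the share to read beside this and the later lists. Summed cathepsin levels were 843 to 972 CPM in palatal libraries, against 987 to 1141 CPM in buccal libraries. Ctsl, a cathepsin that human SERPINB3 and SERPINB13 inhibit, was higher, with 197 ± 27.2 CPM palatal and 137 ± 15.6 CPM buccal (log2 fold change 0.53 ± 0.10, adjusted p = 0.000694, edgeR). Cathepsin S, Ctss, a protease of antigen-presenting cells, was lower, with 4.40 ± 1.17 CPM palatal and 13.2 ± 6.41 CPM buccal (-1.59 ± 0.31, adjusted p = 0.0018, edgeR). Ctsb, Ctsd, Ctsh, Ctsz and Ctsw were also lower, with log2 fold changes of -0.33 ± 0.06, -0.64 ± 0.12, -0.87 ± 0.08, -0.74 ± 0.11 and -2.54 ± 0.25, and Ctsf was higher at 0.76 ± 0.09.

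The neutrophil proteases that SERPINB1 and SERPINB6 inhibit had few or no counts. Ctsg was at 0 in every library, the elastase gene Elane had 0 palatal and 2 buccal counts, and the proteinase 3 gene Prtn3 had 5 palatal and 0 buccal counts, so none of the list was tested. Granzyme B, the target of Serpinb9, had a total of 24 palatal and 71 buccal counts, and the pore-forming Prf1 had 4 and 35. Of 18 granzymes and mast cell proteases 2 were tested, and Gzmc was lower, with 0.514 ± 0.151 CPM palatal and 3.76 ± 1.51 CPM buccal (log2 fold change -2.86 ± 0.29, adjusted p = 2.16e-06, edgeR).

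In the plasminogen system, Plau, which encodes the urokinase that Serpinb2 blocks, was higher like its inhibitor, with 40.4 ± 3.42 CPM palatal and 30.5 ± 5.47 CPM buccal (log2 fold change 0.40 ± 0.11, adjusted p = 0.0107, edgeR). Of 12 genes of this system 10 were tested, and besides Plau only S100a10 passed, which was lower (-0.21 ± 0.08, adjusted p = 0.0455, edgeR). The S100a10 call was lost without palatal library 1, 2, 3 or 5 and without buccal library 1, 2, 3 or 4, with adjusted p of up to 0.119. The receptor gene Plaur (-0.52 ± 0.38), the other activator Plat (0.38 ± 0.50) and the secreted inhibitor Serpine2 (-0.18 ± 0.19) did not pass.

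Caspases, the proteases of cell death and cornification, which a related poxvirus serpin inhibits, also differed in part. Casp14, the caspase of cornifying epithelium, was lower, with 24.6 ± 6.17 CPM palatal and 54.9 ± 7.30 CPM buccal (log2 fold change -1.16 ± 0.15, adjusted p = 5.09e-05, edgeR), as was Casp4 (-2.09 ± 0.23). Casp1 (-0.14 ± 0.07) and Casp8 (0.14 ± 0.08) did not pass. Of 20 membrane and epithelial serine proteases 15 were tested, 4 being higher and 5 lower. Tmprss11d was higher, with 836 ± 70.3 CPM palatal and 553 ± 42.7 CPM buccal (0.60 ± 0.08), as were Tmprss11e (0.96 ± 0.11) and Prss23 (2.63 ± 0.12). Tmprss11b (-0.91 ± 0.10), Tmprss4 (-1.57 ± 0.14) and Prss27 (-1.24 ± 0.10) were lower.

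Inhibitors of other families also differed in both directions. Of 35 serpins of other clades 11 were tested, with 5 higher and 2 lower and a median log2 fold change of 0.33, and their summed level was 643 to 771 CPM in palatal libraries, against 316 to 416 CPM in buccal libraries. Serpina9 was higher, with 521 ± 43.7 CPM palatal and 273 ± 44.8 CPM buccal (0.93 ± 0.10, adjusted p = 5.52e-06, edgeR), as were Serpina12 (2.10 ± 0.12), Serpina11 (2.70 ± 0.28) and the collagen chaperone Serpinh1 (0.33 ± 0.08), while Serpina1e was lower (-1.23 ± 0.24). Of 25 other epithelial protease inhibitors 18 were tested, with 5 higher and 3 lower and a median of -0.03, beside 18.7% higher and 20.3% lower over all tested genes. Spink5, the kallikrein inhibitor of the epidermis, had 2740 ± 268 CPM palatal and 1492 ± 159 CPM buccal (0.88 ± 0.10, adjusted p = 4.94e-06, edgeR), and Wfdc12 (1.56 ± 0.08) and Wfdc2 (0.74 ± 0.13) were also higher. The cysteine protease inhibitor Cstb was lower (-0.67 ± 0.09), and the secretory leukocyte protease inhibitor Slpi (-0.14 ± 0.15) and Csta1 (-0.07 ± 0.11) did not pass.

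**Figure D5:**
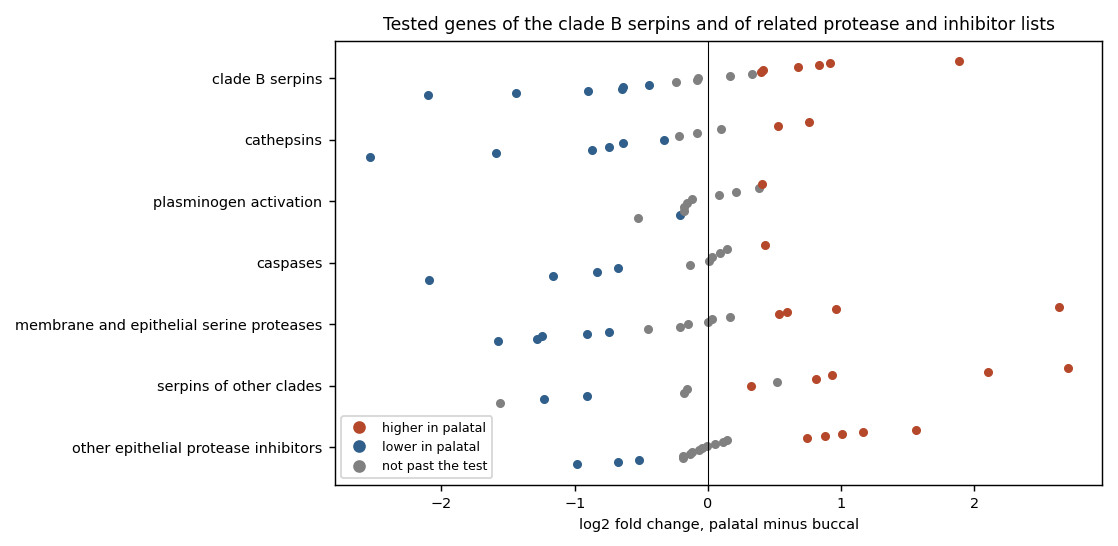
Log2 fold change, palatal minus buccal (horizontal axis), of the tested clade B serpins (top row) and of tested genes in lists of proteases and other inhibitors; each dot is a gene, coloured by its call. The clade B serpins lie on both sides of 0, from -2.10 to 1.88, with a median of -0.08, and the serpins of other clades have a median of 0.33.

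The epithelial identity of the libraries was checked on its markers. All 11 markers of stratified oral keratinocytes were tested, with 5 higher and 3 lower on the palatal side. Of the genes of basal cells, Krt14 (0.96 ± 0.13) and Col17a1 (0.40 ± 0.07) were higher, and Krt5 (-0.06 ± 0.09) and Trp63 (0.13 ± 0.10) did not pass. Krt76 was higher (4.24 ± 0.11), and Krt4 (-2.07 ± 0.12) and Krt13 (-0.76 ± 0.10), keratins of non-cornified mucosa, were lower. Fibroblast markers were present on both sides, with sums of 95.4 to 111 CPM in palatal libraries, against 23.3 to 30.7 CPM in buccal libraries, and of 7 tested Dcn (3.47 ± 0.17), Fbn1 (2.91 ± 0.24) and Thy1 (0.43 ± 0.11) were higher. Most of the palatal sum was Dcn, with a mean of 73.3 CPM palatal and 6.61 CPM buccal. The collagen genes Col1a1 (-0.34 ± 0.30), Col1a2 (0.22 ± 0.29) and Col3a1 (-0.07 ± 0.43) did not pass, nor did Postn. Mast cell markers summed to 8.37 to 9.90 CPM in palatal libraries, against 3.22 to 5.71 CPM in buccal libraries, and nearly all of that was Kit, the only one tested, with a mean of 8.84 CPM palatal and 4.35 CPM buccal. Of the markers more particular to mast cells, Ms4a2 and Tpsab1 were at 0, Cpa3 had 0 palatal and 3 buccal counts, Fcer1a 0 palatal and 1 buccal, and Cma1 2 palatal and 1 buccal. The 6 tested markers of junctional epithelium included 4 that were higher, the keratin genes Krt8, Krt18, Krt7 and Krt19. Odam, by far the most abundant of the 6, did not pass, with means of 76.5 CPM palatal and 74.9 CPM buccal (0.03 ± 0.52). Lcn2 (0.36 ± 0.48) did not pass either. Of 10 markers of minor salivary gland 2 were tested, and both were higher, Lpo (1.56 ± 0.34) and Dcpp3 (1.71 ± 0.57). The sums of this list were 2.25 to 6.38 CPM in palatal libraries, against 0.985 to 2.00 CPM in buccal libraries. The part of these differences in the serpin results, and of gland cells in the Ltf level, was not tested.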

How the data were processed

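RNA-seq was made from 5 palatal and 5 buccal libraries of peeled gingival epithelium, as stranded single-end reads, per the labels' protocols. GRCm39 is the build, and DESeq2 1.36.0, HTSeq 2.01, TopHat2 2.1.1 and cutadapt 2.10 are the tools, listed without roles per the submitters' processing notes. The deposited table holds the authors' raw count per gene and library, per the file headers. It also holds the authors' size-factor-normalized values, a signal used only in 1 alternative. Of 55414 genes, 6250 blank ones were left out, and 19943 of the rest had no counts. There are 0 columns of other samples.

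Genes were kept by filterByExpr (minimum count 10), scaled by TMM and tested with edgeR's quasi-likelihood F-test, robust, two-sided, with Benjamini-Hochberg adjustment at 0.05 over 14062 genes (edgeR 4.0.16, limma 3.58.1, DESeq2 1.42.0, R 4.3.3). The test was tried on simulated data. The standard error is the fold change over the square root of F. Tested genes held at least 99.9% of counts. The limit of 3 counts for a total of 0 covers counting error only. All tested members are named, and list genes are those with the lowest p (up to 4 a list), known targets and partners; some list genes are not reported here. The members and lists were chosen with earlier results of these data known. Replicate numbers were not treated as pairs. Sequences and lengths come from GENCODE M21 (GRCm38) and RefSeq (GRCm38.p6), and were matched by symbol or Ensembl identifier: transcripts for 28 members, promoter entries for 26. Alternatives were other scalings, filters, tools, thresholds and single libraries left out.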

Additional observations from a re-analysis of the deposited data

How the results depend on the processing

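No tested member changed direction in any of 382 values from alternatives, of which 369 kept their call. The counts moved most when fold changes were tested against a fold of 1.5: 2 members were then higher, 2 were lower, and 1491 genes passed over the whole table, against 5474. Serpinb1a, Serpinb8, Serpinb3c and Serpinb3d held there, and Serpinb3a (adjusted p = 0.0728) and Serpinb1b (0.0548) did not. With the copies of each subfamily summed, 3 members were higher and 5 were lower. Leaving out each replicate in turn gave 6 to 6 members higher, 6 to 7 lower, and 4873 to 5328 genes over the whole table.

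With the replicate number as a block, 7 members were higher, 7 were lower and 5518 genes passed, since Serpinb7 (0.36 ± 0.10, adjusted p = 0.0199) and Serpinb11 (-0.24, adjusted p = 0.0387) then passed edgeR's test. Serpinb11 also passed with library totals in place of TMM (-0.29, adjusted p = 0.0467). The numbers were not taken as pairs: correlations of same-numbered libraries were -0.0226 to 0.328, and 2 of 5 palatal libraries lay closest to the buccal library of their number. The other named genes that were followed through the alternatives kept their call in 1543 of 1583 values. They reversed in 4, all of Col3a1, which passed nowhere (-0.38 to 0.18 with single replicates left out). The 11 untested members had too few counts for the main test. Without the filter on low counts 7 members were higher and 6 were lower, although Serpinb13 no longer passed. Both of these counts include members that the main test left out, whose fold changes are not reported here. What lies behind the low counts of the 11 was not tested.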

Other observations

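In Serpinb3c the libraries stood in the same order of numbers on both sides: 1, 3, 4, 5 and 2, from low to high. Of the 17 tested members it was the only one with an identical order, and 1.4% of all tested genes (197 of 14062) had one. Within each number the buccal level was 3.38 to 5.60 times the palatal level. With the replicate number as a block its log2 fold change was -2.03 ± 0.10, beside -2.10 ± 0.50 without it. The labels do not say what a number stands for, and the order was noticed after the values were seen.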
